A study of Mus musculus with 4 samples.

Results

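The genes described here encode the mitochondrial machinery of oxidative phosphorylation. They were taken by name: genes whose current symbol starts with Nduf, Uqcr, Sdha, Sdhb, Sdhc, Sdhd, Cox4i, Cox5, Cox6, Cox7, Cox8 or Atp5, with Cycs and Cyc1 added, each read from its brightest probe over the 4 arrays. This gave 90 genes of 16390 named on the array. Of these, 34 encode subunits of complex I, 4 of complex II, 9 of complex III including Cyc1, 12 of complex IV and 16 of complex V. Cycs, cytochrome c itself, 7 tissue-restricted isoforms of complex IV subunits and 7 assembly factors make up the rest. Ndufa4 was counted with complex IV, where its protein is found. Sdhaf2, Sdhaf3 and Sdhaf4 came in through the letters of the Sdha name and are assembly factors of complex II. Genes of the machinery that are encoded in mitochondrial DNA do not match the names used, and some nuclear genes, such as Cox7a1 and Ndufb6, are not analysed here.

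Oxidative phosphorylation passes electrons from NADH through complex I and from succinate through complex II to ubiquinone, on through complex III to cytochrome c, and through complex IV to oxygen. Protons pumped on the way drive complex V, the ATP synthase. In complexes I to IV, some subunits hold the cofactors, such as flavins, iron-sulfur clusters and hemes, that carry the electrons. Small accessory subunits surround them in complexes I, III and IV. In the small intestine, absorptive enterocytes are rich in mitochondria, and the tumors of ApcMin mice are adenomas started by loss of Apc and active Wnt signaling. Dclk1 encodes a microtubule-associated kinase found in tuft cells, the chemosensory cells of the epithelium.

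The 4 samples were cells of male mice, all with 1 Dclk1CreERT2 allele, which puts an inducible Cre at the Dclk1 locus. Dclk1- and Dclk1+ cells of normal small intestine came from Dclk1CreERT2/+ mice aged 26 weeks, from 1 mouse and from 2 pooled mice. Their tumor counterparts came from Dclk1CreERT2/+; ApcMin/+ mice, the Dclk1- cells from 1 mouse aged 17 weeks and the Dclk1+ cells from 7 pooled mice aged over 16 weeks. The Dclk1+ tumor cells were sorted by GFP, and the labels name no gate for the other 3 samples. Each group has 1 array. The spread between animals is therefore unknown, and no value below has a test or a p-value. Tumor and normal also differ in age, and the Dclk1+ and Dclk1- samples differ in the number of pooled mice; these cannot be told apart from the comparisons.

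Between 63.3% and 70.9% of the 23473 probes were above background on an array, where background is the mean of the blank spots plus 2 SD. Values of the 4 samples are given in the order Dclk1- then Dclk1+ tumor cells, then Dclk1- and Dclk1+ normal cells. Dclk1 itself had log2 signals of 5.95, 6.64, 7.59 and 9.0. It was higher in the Dclk1+ sample of each pair, and the Dclk1- normal sample lay above the Dclk1+ tumor sample. The 10 tuft markers had a log2 summed signal of 9.81, 13.80, 9.69 and 15.47, so the tuft program was high in both Dclk1+ samples. Enterocyte markers (8 on the array) stood at 14.39, 14.0, 16.22 and 15.61, and goblet markers (6 on the array) at 15.24, 13.96, 17.07 and 12.21. Endothelial markers lay between 7.76 and 7.88 on all arrays, and lymphoid markers between 8.11 and 8.53. Of the endothelial markers, Kdr was above background on 4 arrays, Tek on 1, and Pecam1 and Cdh5 on 0. Myeloid markers (7 on the array) stood at 11.40, 10.25, 9.44 and 10.26. In such bulk samples, fewer cells of a type and less RNA per cell cannot be told apart.

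Of the 90 genes, 79 were above background on all 4 arrays, 7 on some of them and 4 on none. The last were Uqcrq, a small subunit of complex III, Ndufaf5, an assembly factor of complex I, and Cox7b2 and Cox8c, testis isoforms of complex IV subunits. A probe not above background gives no level for its gene. Of the other 86 genes, 38 had their highest signal in Dclk1- normal, 29 in Dclk1+ normal, 11 in Dclk1+ tumor and 8 in Dclk1- tumor. The lowest signal fell on a tumor array for most: Dclk1+ tumor for 31 genes and Dclk1- tumor for 28. The distance between the highest and the lowest array had a median of 1.07 on the log2 scale over the 79 genes, was under 1 for 36 of them and reached 2 or more for 8. Ndufs4 (2.64), Sdhd (2.53), Ndufb3 (2.44), Cox4i1 (2.30) and Cyc1 (2.30) spanned the most.

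**Figure D1:**
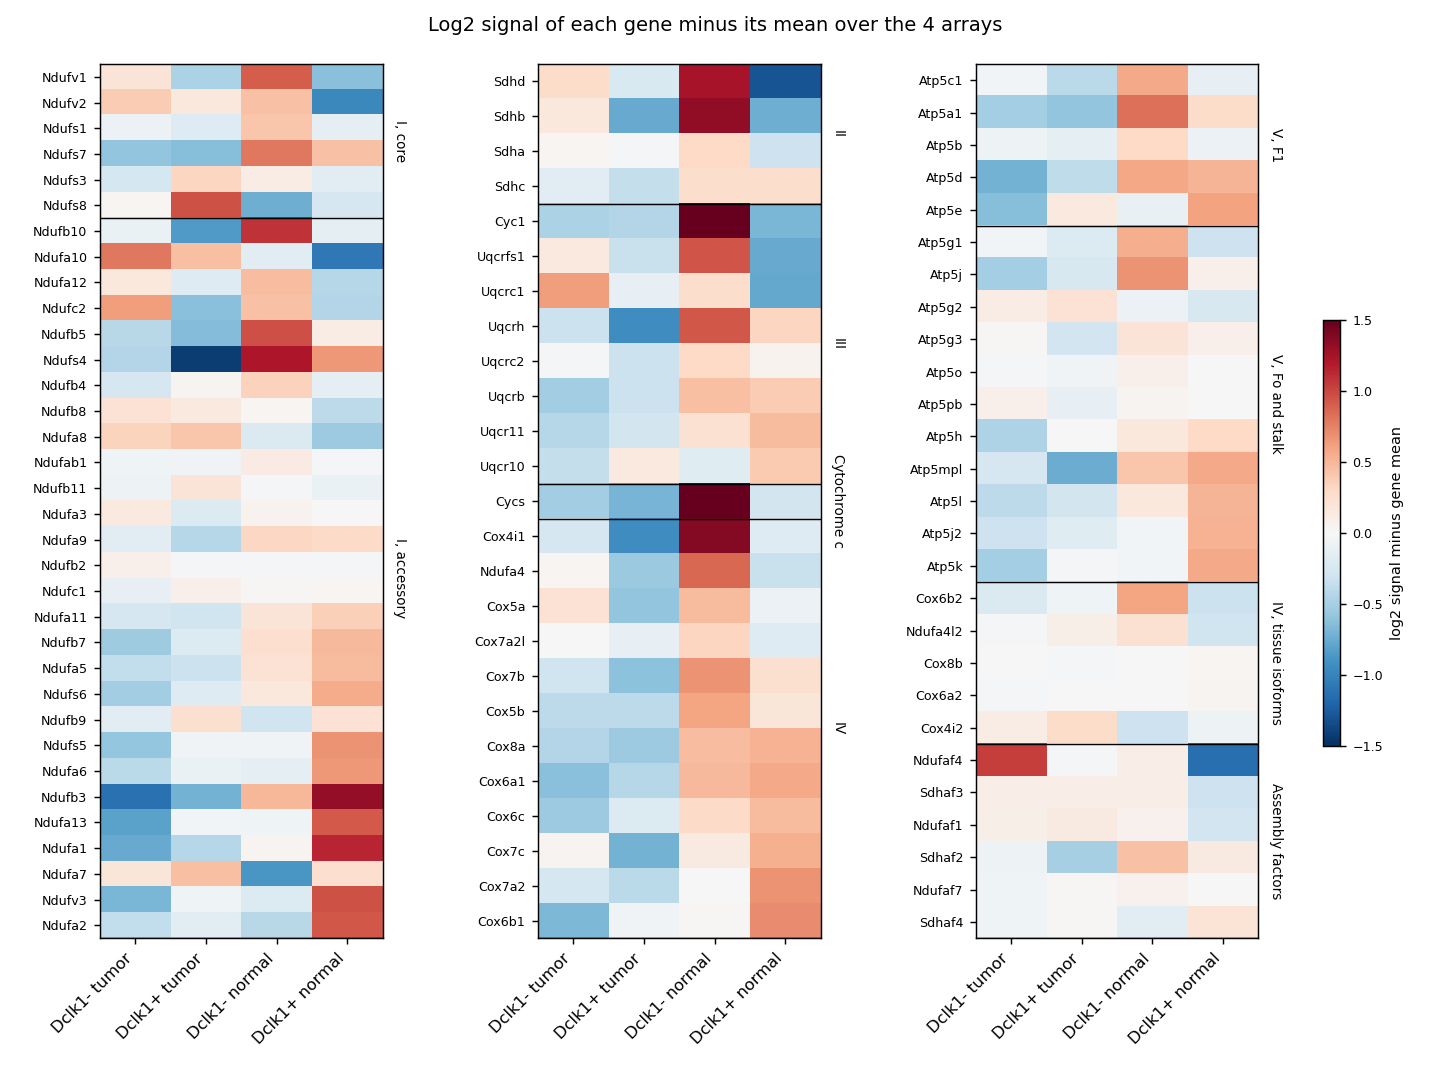
Heat map of the 86 genes detected on any array, grouped by complex. Color gives each gene's log2 signal minus its mean over the 4 arrays (columns), red above and blue below, with colors ending at -1.5 and 1.5. Cyc1, Cycs, Sdhb and Sdhd are reddest in Dclk1- normal, and most genes of complex IV are red in the normal samples and blue in the tumor samples.

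In normal epithelium, Dclk1+ cells had lower signals than Dclk1- cells for 12 of these genes and higher signals for 4, by a 2-fold mark. Sdhd, the membrane anchor of succinate dehydrogenase, was 5.79-fold lower, Cyc1, the heme subunit cytochrome c1 of complex III, 4.91-fold, Sdhb, the iron-sulfur subunit of complex II, 4.17-fold, and Cycs 3.40-fold. The 4 higher genes, led by Ndufa2 at 2.55-fold, encode accessory subunits of complex I, whose 27 tested members lay on both sides of 0 (14 above, 13 below). A gene counts here as different where it is at least 2-fold apart and detected above background on either array. By that count 12 of 85 genes were lower, against 5.92% of all named genes, and 4 of 85 were higher, against 5.66%. The background correction compresses dim signals, so bright genes are given beside these shares. Among named genes with a mean log2 signal of at least 9, a floor chosen after the values were seen, 16.6% were lower and 19.5% were higher, and of 62 bright genes of oxidative phosphorylation 10 were lower and 4 higher. The share that was lower (16.1%) is thus close to that of equally bright genes, while the share that was higher (6.45%) is smaller. In the authors' deposited table, which is scaled otherwise, 13 genes were lower and 14 higher. All named genes had a median of 0.24 there, and their 2-fold shares were not counted.

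In complex II, the enzyme shared by the respiratory chain and the citric acid cycle, 2 of 4 genes were 2-fold lower in Dclk1+ normal cells and the median log2 difference was -1.34. Sdhd had log2 signals of 10.26 in Dclk1- and 9.75 in Dclk1+ tumor cells, and of 11.22 in Dclk1- and 8.69 in Dclk1+ normal cells, the normal samples holding its highest and lowest values. Sdhb had 9.78, 8.86, 10.95 and 8.88 in the same order, with the Dclk1- sample above the Dclk1+ sample in both tissues. The flavin-bearing Sdha differed less, with 9.65, 9.60, 9.92 and 9.31. Sdhc, the other membrane anchor, stood at 12.77 in both normal samples, against 12.33 and 12.15 in Dclk1- and Dclk1+ tumor. Sdhc and Sdhd, which form the heme-bearing anchor together, therefore differed by 0.00 and -2.53 in the same comparison of 2 arrays.

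In complex III, 3 of 8 genes were 2-fold lower and 0 higher (median -0.43). Cyc1 had log2 signals of 9.35, 9.38, 11.43 and 9.13, so that Dclk1- normal stood apart from 3 samples close to each other. Cycs was also highest there, with 8.80, 8.63, 10.82 and 9.06. Uqcrfs1, the Rieske iron-sulfur protein, had 9.36, 8.88, 10.17 and 8.46, and was lower in the Dclk1+ sample of each tissue. Of the core proteins, Uqcrc1 differed by -1.03 and Uqcrc2 by -0.25. The small subunits lay on both sides of 0, with Uqcr10 at 0.58, Uqcr11 at 0.25, Uqcrb at -0.07 and Uqcrh at -0.62.

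In complex I, 3 of 33 subunits were 2-fold lower in Dclk1+ normal cells and 4 were higher, with a median of -0.04. The flavoprotein Ndufv1, which accepts electrons from NADH, had 7.65, 6.98, 8.37 and 6.83. Its partner Ndufv2, an iron-sulfur subunit, had 10.29, 10.06, 10.34 and 8.94, with Dclk1+ normal below the other 3 samples. Other core subunits differed less: Ndufs1 by -0.55, Ndufs7 by -0.35, Ndufs3 by -0.28 and Ndufs8 by 0.48. Ndufb10, an accessory subunit of the membrane arm, was the third one 2-fold lower (-1.22). The 4 that were higher, Ndufa2 (1.35), Ndufv3 (1.16), Ndufa7 (1.12) and Ndufa1 (1.11), are small accessory subunits. Ndufa2 had 12.97, 13.18, 12.92 and 14.27, highest in Dclk1+ normal. The complex I assembly factor Ndufaf4 was lower by 1.23, with 8.59 in Dclk1- normal and 7.36 in Dclk1+ normal.

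Complexes IV and V gave fewer differences. In complex IV, 2 of 12 genes were 2-fold lower in Dclk1+ normal cells: Cox4i1 (-1.57), the common isoform of the regulatory subunit 4, with 12.97 against 11.40, and Ndufa4 (-1.20). Cox5a (-0.56) and Cox5b (-0.41) lay below 0, Cox6a1 (0.08), Cox8a (0.06) and Cox6c (0.19) close to it, and Cox6b1 (0.69) and Cox7a2 (0.66) above. In complex V no gene was 2-fold apart in either direction, over a range from -0.85 for Atp5g1, one of 3 genes for the same c-ring protein, to 0.72 for Atp5e. Of the F1 subunits, Atp5a1 (-0.56), Atp5b (-0.39), Atp5c1 (-0.70) and Atp5d (-0.06) lay below 0 and Atp5e above it. The other c-ring genes, Atp5g2 (-0.16) and Atp5g3 (-0.11), differed less than Atp5g1.

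**Figure D2:**
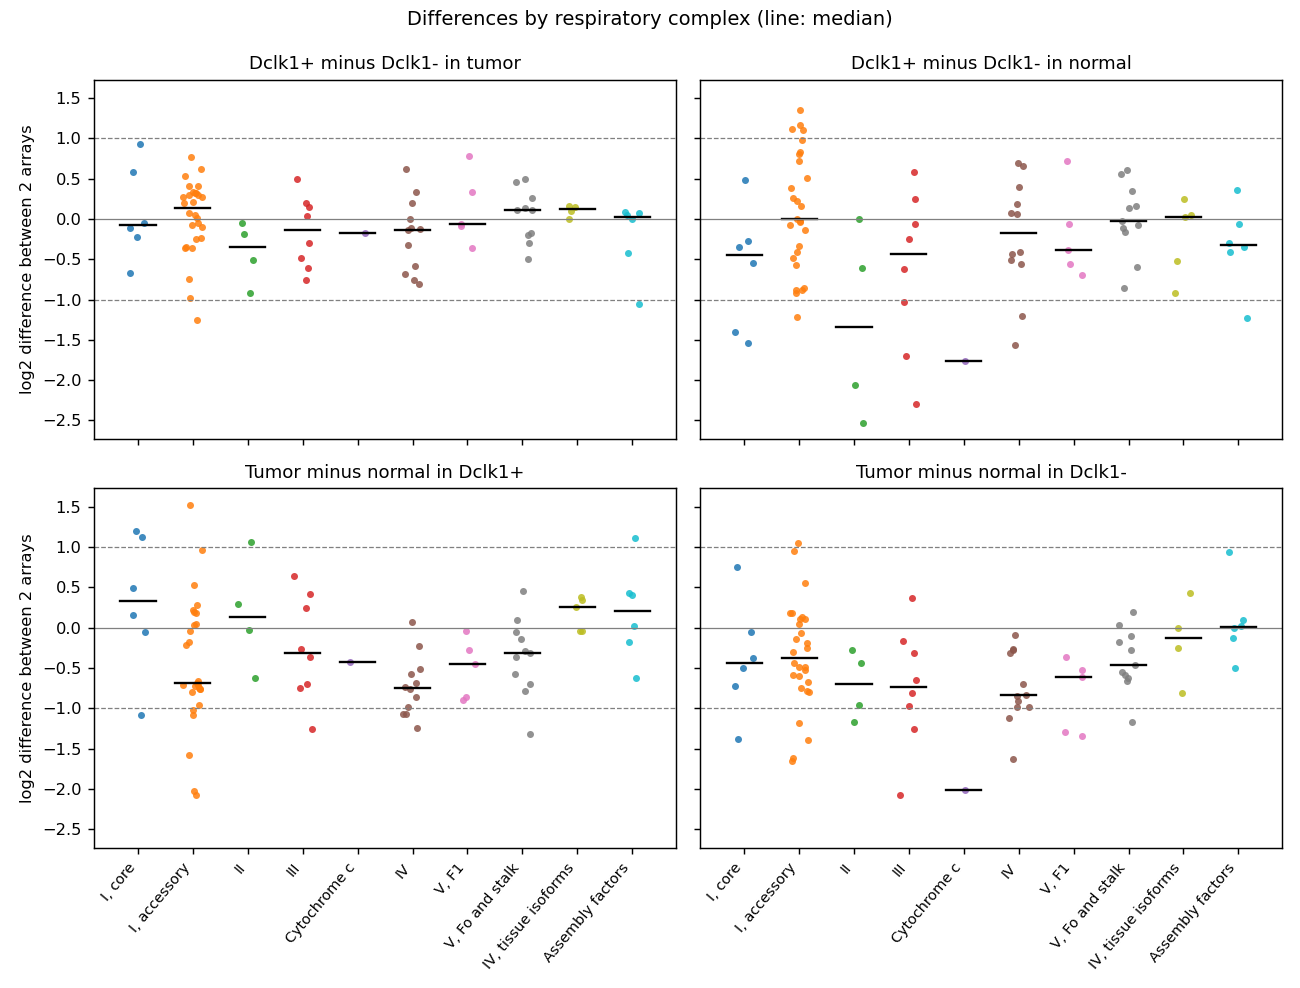
Log2 difference of each gene between 2 arrays (vertical axis) by complex (horizontal axis) in the 4 comparisons. Points are genes above background on either array, lines are medians, and dashed lines mark a 2-fold difference. In normal epithelium the points of complexes II and III reach down to -2.53 and -2.30, and in tumor against normal nearly all points of complex IV lie below 0.

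Grouped after their values were seen, the 12 genes for redox-carrying proteins (Ndufv1, Ndufv2, Ndufs1, Ndufs7, Ndufs8, Sdha, Sdhb, Sdhc, Sdhd, Uqcrfs1, Cyc1 and Cycs) had a median of -1.47 in normal epithelium. Of these, 10 lay below 0 and 7 were 2-fold lower. The 62 other structural subunits tested had a median of -0.05, with 4 lower and 4 higher, and all named genes had a median of 0.01. In tumor the same 12 genes had a median of -0.18, and 0 were 2-fold apart. As the group was formed on these values, its medians only describe it.

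**Figure D3:**
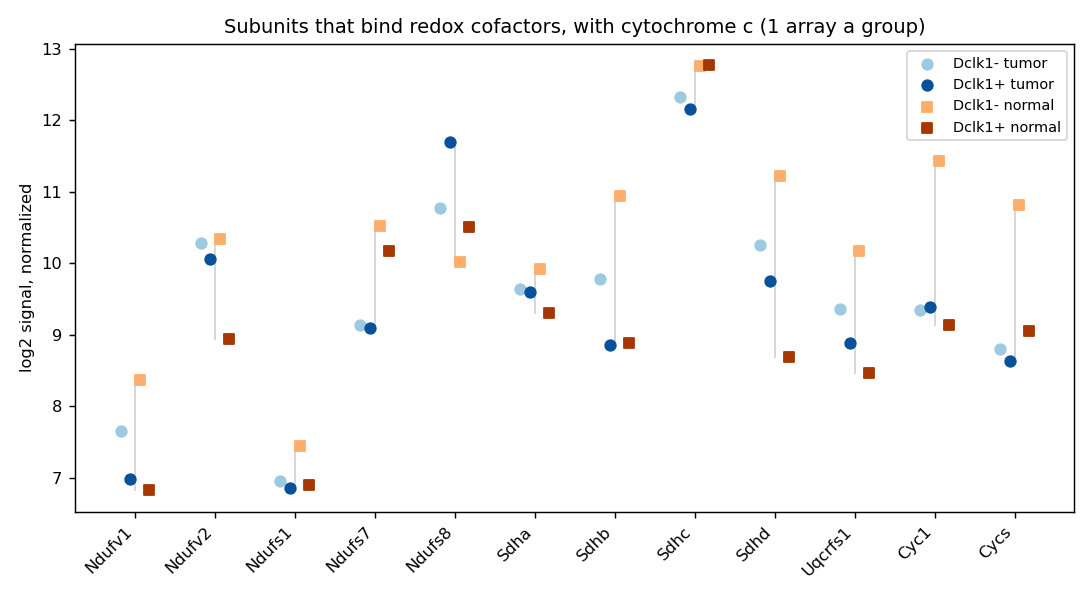
Log2 signal (vertical axis) of the 12 genes for redox-carrying proteins on the 4 arrays, circles for tumor and squares for normal, darker for Dclk1+. Values compare samples within a gene, not genes with each other. Sdhd, Sdhb, Cyc1 and Cycs are highest in Dclk1- normal, while Ndufs8 is highest in Dclk1+ tumor.

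Across the 85 genes, the difference in normal epithelium went with the signal level: Spearman's rho between a gene's log2 difference and its mean log2 signal was 0.43, against 0.07 over all 12844 named genes tested. All genes share the same arrays and normalization here, and different probes are not on one scale, so this is a description. The 5 genes with the highest probe signals, Atp5g3, Cox6c, Cox8a, Cox6a1 and Atp5c1, differed by -0.11, 0.19, 0.06, 0.08 and -0.70, so none of them was among the genes 2-fold apart. In tumor, rho was 0.34 over 84 genes, against 0.03 for all named genes. The part of signal level in these differences was not tested beyond the brighter-gene shares given.

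**Figure D4:**
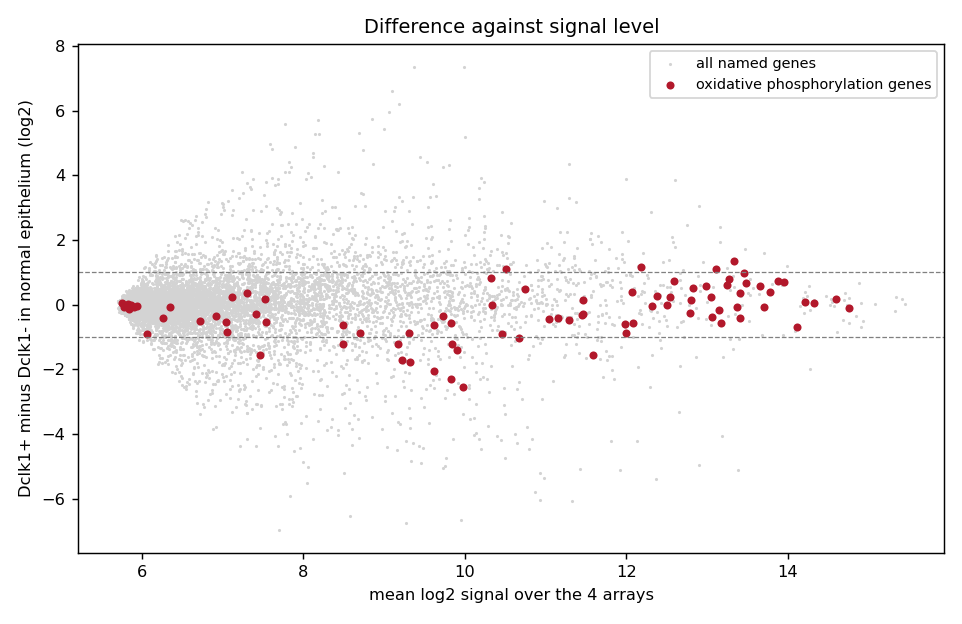
Dclk1+ minus Dclk1- log2 difference in normal epithelium (vertical axis) against the mean log2 signal over the 4 arrays (horizontal axis). Grey points are all 12844 named genes tested, red points the 85 genes of oxidative phosphorylation, and dashed lines mark 2-fold. Red points at mean signals near 9 to 10 reach down to -2.53, and those above 12 lie between -1 and 1.35.

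Markers of the cell types moved with this comparison. In Dclk1+ against Dclk1- normal cells, 9 of 10 tuft markers were 2-fold higher, 5 of 8 enterocyte markers, 6 of 6 goblet markers and 6 of 8 enteroendocrine markers were 2-fold lower, and 1 enterocyte marker, Fabp1, was higher. Paneth markers were lower for 4 of 4 and stem and progenitor markers for 2 of 8, and myeloid markers were higher for 2 of 5. Apoa1, a defining enterocyte gene, stood at 10.04 in Dclk1- and 5.90 in Dclk1+ normal cells. Of the 10 tuft markers, 8 were above background in Dclk1- normal cells, with Dclk1 at 7.59, Trpm5 at 6.77 and Alox5ap at 6.63. Rgs13 (5.71) and Gfi1b (5.85) were close to background there. The part of these cell types in the differences of respiratory genes was not tested.

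The sequences before 4 start sites are shown because regulators of respiratory genes, NRF1, ETS factors such as GABPA, and estrogen-related receptors, are known to bind such promoters. Sdhd, Sdhb and Cycs were among the lowest in Dclk1+ normal cells and Ndufa1 among the higher ones. Each runs 5′ to 3′ along the gene's strand from 150 bases before the RefSeq start to 30 after it, in build GRCm38.p6, with matches to the searched motifs in capitals. Sdhd lies at chr9:50603820-50603999 on the minus strand, Sdhb at chr4:140961121-140961300 on the plus strand, Cycs at chr6:50566540-50566719 on the minus strand and Ndufa1 at chrX:37191209-37191388 on the minus strand.
Sdhd: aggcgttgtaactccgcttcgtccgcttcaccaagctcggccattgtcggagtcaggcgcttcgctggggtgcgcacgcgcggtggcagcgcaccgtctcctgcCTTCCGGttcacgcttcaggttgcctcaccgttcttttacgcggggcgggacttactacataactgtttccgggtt
Sdhb: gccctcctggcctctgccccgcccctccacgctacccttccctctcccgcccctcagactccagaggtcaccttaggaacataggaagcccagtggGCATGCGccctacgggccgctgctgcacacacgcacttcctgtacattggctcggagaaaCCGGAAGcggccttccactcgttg
Cycs: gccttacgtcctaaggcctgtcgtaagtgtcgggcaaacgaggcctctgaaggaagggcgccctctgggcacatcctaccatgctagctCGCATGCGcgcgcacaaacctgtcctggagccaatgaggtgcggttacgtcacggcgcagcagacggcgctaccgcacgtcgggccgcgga
Ndufa1: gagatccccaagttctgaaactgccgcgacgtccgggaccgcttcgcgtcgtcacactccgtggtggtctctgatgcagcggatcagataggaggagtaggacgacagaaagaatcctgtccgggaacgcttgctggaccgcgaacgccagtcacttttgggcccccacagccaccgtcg

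The motifs were CCGGAAG for ETS factors, GCATGCG for NRF1, AAGATGG for YY1 and TGACCTT for estrogen-related receptors, searched on both strands from 250 bases before to 50 after each start. Sdhd holds an ETS match on the opposite strand and, past the end of the printed stretch, the letters for estrogen-related receptors on its own strand. Sdhb holds an NRF1 and an ETS match on its own. Cycs holds the NRF1 letters on both strands, overlapping, and Ndufa1 holds none of the 4. Promoters were listed for 74 of the 90 genes. The ETS letters were in 18 of these (24.3%), against 9.93% of 27025 genes in the table, and the NRF1 letters in 14 (18.9%), against 4.01%. YY1 letters were in 11 (14.9%, against 7.28%) and those of estrogen-related receptors in 8 (10.8%, against 5.38%). In normal epithelium, the 25 tested genes with an ETS or NRF1 match had a median of -0.16, with 5 genes 2-fold lower and 0 higher. The 46 with neither had a median of -0.12, with 5 lower and 3 higher, and Uqcrfs1 (-1.70) lowest. The 4 printed genes are examples and do not show how matches go with direction. A match is a run of letters and not a shown binding site.

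In tumors, Dclk1+ and Dclk1- cells differed less in these genes, with a range from -1.25 to 0.93 and a median of 0.00 against 0.01 for all named genes. Ndufc2, an accessory subunit of complex I, was 2.38-fold lower in Dclk1+ cells, with 9.94 against 8.69, and Ndufaf4 was 2.07-fold lower, with 9.52 against 8.47. These were 2 of 84 genes, against 2.13% of all named genes, and 0 were higher, against 1.76%. The shares over all named genes were 5.92% and 5.66% in normal epithelium, so genes at large also differed less in tumor. Among bright genes 1 of 62 was lower and 0 higher, against 5.96% and 5.45%. Other settings changed these small counts. Subtracting the local background left neither of the pair at 2-fold (Ndufc2 -0.98, Ndufaf4 -0.88) and gave 4 lower and 6 higher, plain subtraction gave 7 lower and 2 higher, and 3 were lower and 6 higher in the authors' deposited table.

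Just inside those marks lay Ndufs4 (-0.98), an accessory subunit needed for a stable complex I, and Sdhb (-0.92). At the other end Ndufs8 (0.93), an iron-sulfur subunit of complex I, had 10.77 in Dclk1- and 11.70 in Dclk1+ tumor cells. It was followed by Atp5e (0.78), Ndufa13 (0.76), Ndufv3 (0.63) and Cox6b1 (0.62). Of the 4 genes of complex II, 4 lay below 0, with a median of -0.35, and 9 of 12 in complex IV did, with a median of -0.13 and Cox5a lowest at -0.81. Tuft markers were 2-fold higher for 7 of 9 tested, and 4 of 8 enterocyte, 4 of 6 goblet, 3 of 4 Paneth and 2 of 5 myeloid markers 2-fold lower. The part of these cells was not tested.

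The comparison in tumor and that in normal epithelium share no array. Of the 83 genes tested in both, 35 lay below 0 in both, out of 42 below 0 in tumor and 50 in normal. Another 26 lay above 0 in both, out of 41 and 33. The same overlap was not counted over all named genes, so these counts only describe the set. Ndufaf4, with -1.05 and -1.23, was 2-fold lower in both. Several electron-carrying subunits lay far apart in the 2 tissues. Cyc1 had 0.03 in tumor and -2.30 in normal, Cycs -0.17 and -1.76, Ndufv2 -0.23 and -1.40, and Sdhb -0.92 and -2.06.

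**Figure D5:**
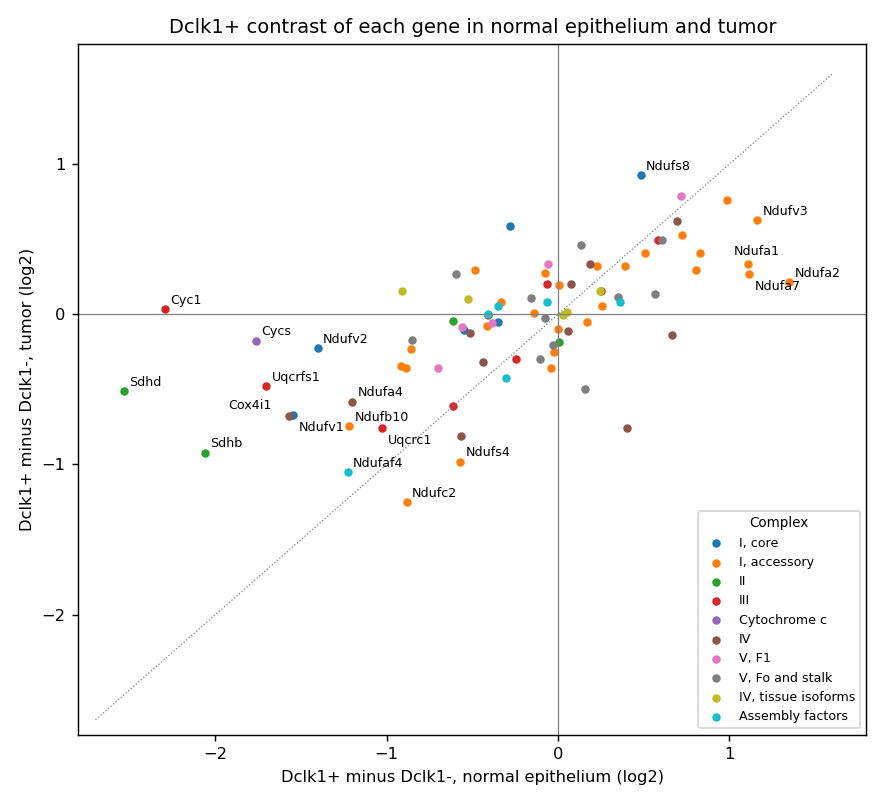
Log2 difference of Dclk1+ minus Dclk1- cells in normal epithelium (horizontal axis) and in tumor (vertical axis) for each gene, colored by complex, with the dotted line marking equal values. Sdhd, Cyc1, Sdhb and Cycs lie far left of the line, at -2.53, -2.30, -2.06 and -1.76 in normal and between -0.92 and 0.03 in tumor.

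The tumor difference minus the normal difference, which uses all 4 arrays, was at least 1 for 7 of 86 genes and at most -1 for 2. The shares over all named genes were 4.42% and 4.40%. For bright genes the counts were 6 and 2 of 62, against 14.1% and 13.6%. The highest were Cyc1 (2.33), Sdhd (2.02) and Cycs (1.59), and the lowest Cox7c (-1.16) and Ndufa2 (-1.14). For Cyc1 and Cycs the sample that stood apart was Dclk1- normal, and for Ndufv2 (1.18) it was Dclk1+ normal.

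Tumor cells had lower signals than normal cells for most of the machinery, in both sorted populations. In complex IV, 12 of 12 genes lay below 0 in Dclk1- cells, with a median of -0.83, and 11 of 12 in Dclk1+ cells, with a median of -0.75. Over all complexes, 68 of 85 genes lay below 0 in Dclk1- cells (median -0.48, against -0.02 for all named genes). In Dclk1+ cells 57 of 85 did (median -0.29, against -0.03). Above 0 lay 17 of 85 genes in Dclk1- cells, against 44.5% of all named genes, and 28 of 85 in Dclk1+ cells, against 43.2%. The median of these genes minus that of all named genes was between -0.42 and -0.26 in Dclk1+ cells and between -0.50 and -0.30 in Dclk1- cells over the settings tried. Tumor and normal samples differ in age and in ApcMin genotype, as stated above. The number of pooled mice also differs in Dclk1+ cells, while each Dclk1- sample came from 1 mouse.

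In Dclk1- cells, 14 of 85 genes were 2-fold lower in tumor, against 5.24% of all named genes, and 1 was higher, against 5.83%. Among bright genes, 12 of 62 were lower, against 15.1%, and 1 higher, against 17.5%. Cyc1 was 4.23-fold lower and Cycs 4.05-fold lower, both from the Dclk1- normal sample in which they were high. Ndufs4 (-1.66), Cox4i1 (-1.62), Ndufb3 (-1.61), Ndufb5 (-1.39), Ndufs7 (-1.38) and Atp5a1 (-1.34), the alpha subunit of the F1 head, followed. Atp5d (-1.29), Uqcrh (-1.26), Ndufb10 (-1.19), Atp5j (-1.17), Sdhb (-1.17) and Cox6a1 (-1.12) made up the rest of the 14. With the local background subtracted, Sdhb turned to 0.78, and 25 genes were lower and 3 higher. There were 28 lower and 1 higher in the authors' deposited table, where all named genes had a median of -0.45. Shares of all named genes past 2-fold were not counted for either setting. Ndufa7 (1.05) was the 1 gene higher, with 9.64 in normal and 10.69 in tumor. The F1 part of complex V lay below 0 for 5 of 5 genes (median -0.61), and its Fo part and stalk for 9 of 11 (median -0.46). Enterocyte markers were 2-fold lower for 6 of 8, goblet markers for 4 of 6 and enteroendocrine markers for 7 of 8 in the same comparison. Paneth markers were 2-fold higher for 2 of 4 (Mmp7 4.47, Defa5 2.74), myeloid markers for 2 of 5 (C1qb 2.94, C1qa 2.22) and stromal markers for 1 of 6 (Acta2). The part of these cells was not tested.

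In Dclk1+ cells, 11 of 85 genes were 2-fold lower in tumor, against 4.20% of all named genes, and 5 were higher, against 4.27%. Among bright genes, 10 of 62 were lower and 4 higher, against 16.1% and 14.0%. Ndufs4 was 4.20-fold lower, with 10.48 in normal and 8.41 in tumor. Ndufb3, an accessory subunit of the membrane arm, was 4.08-fold lower, with 11.65 and 9.62. Ndufa1 (-1.58), Atp5mpl (-1.32), Uqcrh (-1.25), Cox7c (-1.25), Ndufa2 (-1.09), Ndufs7 (-1.08), Cox8a (-1.07), Cox7a2 (-1.07) and Ndufv3 (-1.02) followed, most of them small proteins. The higher ones were Ndufa10 (1.53), Ndufs8 (1.20), Ndufv2 (1.12), Ndufaf4 (1.11) and Sdhd (1.06). Ndufs8, Ndufv2 and Sdhd fell under 2-fold with either scaling named below and in the deposited table. Ndufaf4 did so with the local background subtracted. When the arrays were scaled to the 75th percentile or the median, 17 genes were lower and 2 higher, and local background subtraction gave 18 lower and 7 higher. There were 31 lower and 4 higher in the authors' deposited table, where all named genes had a median of -0.37. Shares of all named genes past 2-fold were not counted under these settings.

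Of the complex I core in Dclk1+ cells, 4 of 6 genes lay above 0, with a median of 0.33, while 18 of 27 accessory subunits lay below 0, with a median of -0.69. Ndufs8 had 10.77, 11.70, 10.02 and 10.50, the tumor sample being higher in both populations. Ndufa10 did the same, with 11.25, 10.90, 10.29 and 9.38. Tuft markers were 2-fold lower in Dclk1+ tumor than in Dclk1+ normal cells for 8 of 10, and enterocyte markers for 2 of 8. Paneth markers were 2-fold higher for 3 of 4, stem and progenitor markers for 3 of 7 and goblet markers for 2 of 6 (Agr2 6.22, Spink4 4.48). The part of these cells was not tested.

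The comparisons of tumor with normal in Dclk1+ and Dclk1- cells share no array either. Of the 84 genes tested in both, 51 lay below 0 in both, out of 56 in Dclk1+ and 68 in Dclk1- cells, and 11 above 0 in both, out of 28 and 16. Here too the overlap was not counted over all named genes, and the counts only describe the set. Ndufs4 (-2.07 in Dclk1+, -1.66 in Dclk1-), Ndufb3 (-2.03, -1.61), Ndufs7 (-1.08, -1.38) and Uqcrh (-1.25, -1.26) were 2-fold lower in both. Ndufs4 and Ndufs7 kept this in all settings tried, as did Ndufb3, and Uqcrh lost it with the local background subtracted (-0.81 and -0.94). Ndufs7 is an iron-sulfur subunit next to the ubiquinone site, and Uqcrh is the hinge protein of complex III. Their signals separate the tissues: Ndufs7 had 9.14 and 9.09 in the tumor samples and 10.53 and 10.17 in the normal ones, and Ndufs4 had 9.39 and 8.41 against 11.05 and 10.48.

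Tissue-restricted isoforms were dim. Cox4i2, an isoform of subunit 4 known from lung and from hypoxic cells, had 7.23, 7.39, 6.81 and 7.05, and lay 0.35 and 0.43 higher in tumor in Dclk1+ and Dclk1- cells. Ndufa4l2, a hypoxia-induced relative of Ndufa4, lay between 7.25 and 7.77. Cox8b was between 5.81 and 5.85 on all 4 arrays, at the low end of the scale, and Cox6a2, the heart and muscle isoform, was above background in Dclk1+ normal alone. Cox6b2, a testis isoform, was at least 1.86-fold higher in Dclk1- than in Dclk1+ normal cells, where it was not above background.

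Neighboring pathways of the mitochondrion were read from lists of genes outside the 90. The shares to read them against in normal epithelium are those given above, 5.92% lower and 5.66% higher over all named genes, and 16.6% and 19.5% over bright ones. In the citric acid cycle, which feeds NADH and succinate to the chain, 5 of 17 genes were 2-fold lower in Dclk1+ normal cells and 0 higher, with a median of -0.70. They were Idh3b (-1.90) and Idh3a (-1.85) of NAD-dependent isocitrate dehydrogenase, Cs (-1.81), the citrate synthase, Fh1 (-1.43) and Mdh2 (-1.07). In tumor the median of this list was -0.33, with Idh3a (-1.29) 2-fold lower. Of 15 genes of fatty acid oxidation, 6 were lower in Dclk1+ normal cells, led by Hadh (-2.38) and Acadm (-1.66), and 2 higher, Cpt1a (1.40) and Acadl (1.32). Of 20 glycolysis genes 5 were higher, led by Aldoc (2.39) and the glucose transporter Slc2a1 (2.12), and 2 lower, Hk2 (-2.77) and Tpi1 (-1.55). Of 25 mitochondrial ribosome genes tested, 6 were lower and 1 higher (median -0.32), and of 15 carriers and antioxidant genes, 4 were lower and 1, the channel Vdac3 (3.04), was higher.

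In tumor against normal, the mitochondrial ribosome had a median of 0.32 in Dclk1+ cells, with 3 of 24 genes higher and 0 lower. In Dclk1- cells its median was 0.00, with 2 of 25 higher and 0 lower. The shares of all named genes 2-fold higher and lower were 4.27% and 4.20% in Dclk1+ cells, and 5.83% and 5.24% in Dclk1- cells. Among bright genes they were 14.0% and 16.1% in Dclk1+ cells, and 17.5% and 15.1% in Dclk1- cells. The citric acid cycle had medians of -0.07 and -0.28, with Idh2 2-fold higher in both (1.73 and 1.24) and Ogdh, Idh3b, Cs and Sucla2 2-fold lower in Dclk1- cells. Assembly factors outside the 90 had medians of -0.14 and -0.26. Of 14 regulators of mitochondrial biogenesis, Pprc1 was higher in tumor in both populations (1.27 and 1.07) and the mitochondrial rRNA methyltransferase Tfb1m was lower in Dclk1+ tumor cells (-1.56). Ppargc1a, the coactivator PGC-1alpha, lay between 5.79 and 6.02 on all 4 arrays, close to background.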

How the data were processed

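One Toray array was hybridized for each of the 4 groups. Per the file headers, the deposited scanner files give spot and local background intensities as medians, never log transformed, that combine 3 scan gains. The authors' deposited table gives intensities rescaled to an array median of about 25, as found by comparing it with the spots. Symbols from the platform table were updated through RefSeq GRCm38.p6: 12622 were current, 3947 were synonyms of 1 gene, 59 of several and 3 unmatched; 6842 probes are unnamed here.

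Spot intensities were background corrected with normexp (offset 50) in limma 3.58.1 under R 4.3.3, quantile normalized across arrays and log2 transformed. The offset compresses dim signals. With 1 array in each group, differences were counted at 2-fold and no test was made. The SD of log2 differences between probes of 1 gene was 0.44, 0.90, 0.51 and 0.80 for the Dclk1 contrast in tumor, that in normal, and the tumor contrast in Dclk1+ and in Dclk1- cells. Ndufs5, the only gene here with several probes, had its 2 probes on the same side in all 4 comparisons. The number of arrays limits the precision.

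Genes are named where they are 2-fold apart, among the 5 highest or lowest of a comparison, or in a fixed list of main subunits; others are described by group. The genes and lists were chosen with earlier results of these data known. Alternatives were other offsets, background corrections, scalings, probe rules and gene sets, and the deposited table.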

Additional observations from a re-analysis of the deposited data

Results flagged for a closer look

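Sdhd, the membrane anchor of succinate dehydrogenase, lay on opposite sides of 0 for tumor against normal in the 2 sorted populations: its log2 difference was 1.06 in Dclk1+ cells and -0.96 in Dclk1- cells, a gap of 2.02. With 1 array in each group the difference between them was not tested. It was the only one of the genes of oxidative phosphorylation with at least 0.5 on either side. When the arrays were scaled to the 75th percentile the values were 0.89 and -1.01.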

How the results depend on the processing

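Directions of the 2-fold genes held in all settings but 1: Sdhb, tumor against normal in Dclk1- cells, turned to 0.78 with the local background subtracted; the cause was not tested for this or the shifts below. Counts and medians moved as follows. With an offset of 16, 2 genes were higher in Dclk1- tumor than in Dclk1- normal cells. Plain subtraction gave 2 higher and 7 lower for Dclk1+ against Dclk1- in tumor, a median of -0.27 for the same in normal, a median of -0.48 for tumor against normal in Dclk1+ cells, and 3 higher with a median of -0.60 in Dclk1- cells. Local background subtraction gave 6 higher and 4 lower for Dclk1+ in tumor, 18 lower for tumor against normal in Dclk1+ cells, and 3 higher and 25 lower in Dclk1- cells. Scaling to the 75th percentile put the normal Dclk1+ median at 0.001 and gave 2 higher, 17 lower and a median of -0.47 for tumor in Dclk1+ cells, and 0 higher in Dclk1- cells. Median scaling gave 5 lower and a median of -0.21 for Dclk1+ in tumor, 2 higher, 17 lower and a median of -0.45 for tumor in Dclk1+ cells, and 0 higher with a median of -0.35 in Dclk1- cells. The deposited values gave 6 higher and a median of 0.27 for Dclk1+ in tumor, and 14 higher and 0.15 in normal. For tumor in Dclk1+ and Dclk1- cells they gave 31 and 28 lower, with medians of -0.76 and -0.75. All named genes also shifted there, with medians of 0.33, 0.24, -0.37 and -0.45 in the same order. With plain subtraction the medians of all named genes were 0.09 for Dclk1+ in normal, and -0.17 and -0.15 for tumor in Dclk1+ and Dclk1- cells. Their 2-fold shares were not counted under these other settings. Without assembly factors and tissue isoforms, 1 gene was lower for Dclk1+ in tumor, and the median for tumor in Dclk1+ cells was -0.44. No paired analysis was possible because each group has 1 array. Genes near background have compressed differences.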

Other observations

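Genes of complex V that carry other names were read beside the Atp5 genes. Atpif1, the inhibitor of the ATP synthase that acts when the proton gradient is lost, had log2 signals of 13.18 and 13.65 in Dclk1- and Dclk1+ tumor cells, and of 13.86 and 13.37 in their normal counterparts. Its Dclk1+ minus Dclk1- difference was 0.47 in tumor and -0.49 in normal, under 2-fold in each. Dmac2l, also known as factor B of the synthase, lay between 6.24 and 6.86.

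Among assembly factors outside the gene names used, Uqcc2, which acts in complex III assembly, was higher in Dclk1+ cells in both tissues (1.37 in tumor, 1.90 in normal). Cox17, the copper chaperone of complex IV, was 1.45 higher in normal and 0.55 in tumor. Of the 22 such factors tested in normal, 2 were 2-fold higher and 2 lower, Lrpprc (-1.03) and Atpaf2 (-1.01). Their median there was -0.07. Acad9, a complex I assembly factor related to acyl-CoA dehydrogenases, was lower in Dclk1+ tumor cells (-1.45), with -0.34 in normal.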
